A study of Mus musculus with 2 samples.

Results

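Collagen chains are the products of the genes named Col, a type number, the letter a and a chain number. Probes that are not controls and carry such a name were taken from 2 Agilent arrays that compared gastrocnemius (GAS) muscle of *Gde5* skKO and WT mice. The name found 40 chains, measured by 81 probes and 99 spots, among 27718 genes and 41111 probes. By type they made up 11 fibrillar chains, 6 basement membrane chains and 23 chains of other types. The mice were males of 15 weeks on a C57BL/6 background, and all were kept on a normal diet. In *Gde5* skKO mice exon 11 of *Gde5* (also *Gpcpd1*, a glycerophosphocholine phosphodiesterase) was flanked by loxP sites and removed by Cre under the HSA promoter, which is active in skeletal muscle fibres. Other cells of the muscle kept the gene. WT mice were the comparison group. The paper names the array controls only as WT. For its force, glucose tolerance and fasting experiments it used *Gde5*-floxed littermates as controls, so WT here may mean floxed mice. Array 1 held WT RNA in Cy3 and *Gde5* skKO RNA in Cy5, and array 2 held them with the dyes exchanged. Per the labels each genotype had 5 mice. Pooling of their RNA, a shared RNA on both arrays, and fasting or glucose are not given there, so no test across mice was made. The paper reports expression comparisons of the genotypes after a glucose injection and under fasting. It does not state which of these the arrays hold.

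Collagens are proteins of 3 chains wound into a triple helix. Fibrillar collagens assemble into the fibrils that bear load in tendon and in the sheaths around muscle fibres, while type IV collagen forms a sheet-like network in the basement membrane of muscle fibres and vessels. Other types coat fibrils, anchor them or link cells to them. In muscle most fibrillar and type VI collagen is made by fibroblasts of the connective tissue, and type IV chains are made by endothelial cells and muscle cells among others.

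No collagen chain was called higher or lower in *Gde5* skKO muscle. The chains of type I and type III collagen, *Col1a1*, *Col1a2* and *Col3a1*, had mean log2 ratios of -0.033, 0.048 and 0.025 of *Gde5* skKO over WT. Among chains with more than 1 probe above background, *Col22a1*, *Col4a2* and *Col4a1* had the highest means, of 0.43, 0.38 and 0.32. Of all chains above background *Col24a1* had the highest mean, of 0.56, but only 1 of its probes was above background. Each of these chains passed the threshold of the scanning software on 1 array and not on the other. A chain was called when the software's p-value, which rests on the error of the spots within an array, was under 0.05 on both arrays with the same direction.

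*Col4a1* and *Col4a2* lie head to head on chromosome 8 and are read from a shared promoter in opposite directions. In the RefSeq promoter table (GRCm38.p6) the annotated transcripts overlap by 22 bases at their starts. This stretch, chr8:11312805-11312826 on the plus strand, is shown because both genes had similar ratios below, with a GC box (GGGCGG, the core of sites bound by Sp1 family factors) in capitals.
Col4a2: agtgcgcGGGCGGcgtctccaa
Of the 40 chains, 32 had an entry in the table, which spans 250 bases before to 50 bases after a start. GGGCGG on either strand was found in 19 of these 32 windows (59.4%) and in 35.9% of all 27025 windows, and CCAAT in 11 (34.4%) and in 37.9%. The windows of *Col4a1* and *Col4a2* held both motifs. The end letters of the motifs can be shared where they lie side by side, and a match describes the letters of the window only.

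The deleted gene serves as a check of the labels. Probes of *Gde5*, listed under its older name *Prei4*, gave log2 ratios of -2.69 and -3.24 on arrays 1 and 2, -3.07 and -3.29, and -2.59 and -3.27, and each of these 3 probes was called lower. The other probe, which was the brightest, had ratios of -0.050 and -0.47 and was not called. Where the probes lie relative to exon 11 was not examined, since no annotation of their build was used. On both arrays these 3 probes were lower in the channel labelled *Gde5* skKO.

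Of the 40 chains, 31 were represented by a probe whose signal stood well above background on each array in 1 channel or more, and for 28 it did so in every channel. The 31 were 10 fibrillar, 5 basement membrane and 16 other chains. The other 9 chains did not pass this filter. The signals of *Col4a5*, *Col9a1*, *Col9a3*, *Col10a1*, *Col25a1* and *Col28a1* were in no channel well above background and lay between 5.79 and 28.5. *Col20a1* and *Col23a1* were above it only in the *Gde5* skKO channel of array 1. *Col27a1*, a fibrillar chain, was above it only on array 2, with 155 in *Gde5* skKO and 319 in WT. Several of these chains (types IX and X) are known from cartilage. No spot of a collagen chain was saturated or left out.

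Among the 31 chains, 0 were called higher and 0 lower by the software's p-values. Across the 13618 genes tested, 1.57% were called higher and 1.73% lower. The limma moderated test used the 2 ratios after normexp background correction and loess normalization, not the deposited ratios. It measures only the spread between hybridizations. At an unadjusted p under 0.05 it called 2 chains higher and 0 lower, against 4.24% and 4.27% of genes. After adjustment over all genes it called 0 chains, against 0.8% of genes. When the errors of both arrays were combined into an error of the mean, 4 chains were higher and 0 lower past the 95% limit, against 7.95% and 6.31% of all genes. This rule was chosen after the values were seen. The 4 were *Col4a1*, *Col4a2*, *Col22a1* and *Col24a1*. At least 1 array passed its own threshold for 7 chains, against 21.1% of genes.

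By sign alone, 10 chains were higher on both arrays, against 29.2% of genes, and 3 were lower on both, against 25.2%. The other 18 had opposite directions on the arrays, against 45.6% of genes. On array 1 the median log2 ratio of the 31 chains was -0.013, on array 2 it was 0.095, and in the mean of the arrays 0.044. For all genes tested these medians were 0.0088, 0.016 and 0.015. In 24 of 31 chains the mean was within 0.25 of 0. The ratios of the arrays correlated across the 28 chains measured in both channels with r = 0.010, and across the 12356 such genes with r = 0.28. Over all 31 chains r was -0.17, and over all 13618 genes it was -0.079. These are descriptions across genes that share the same hybridizations.

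**Figure D1:**
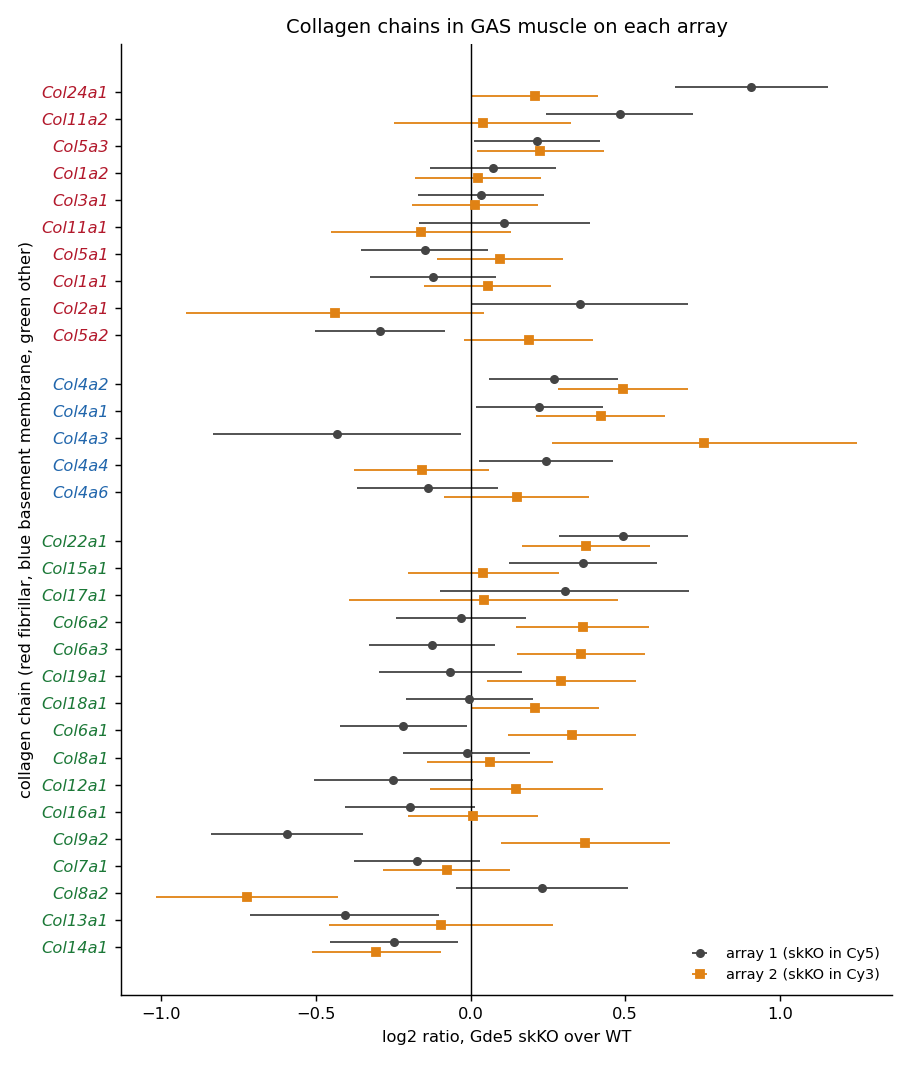
Log2 ratio of *Gde5* skKO over WT (x axis) for each of the 31 collagen chains above background (y axis), ordered by mean within the type groups. Circles are array 1 and squares array 2, and bars show the error the scanning software gives each ratio (1 standard error). *Col22a1*, *Col4a1* and *Col4a2* are among the 10 chains above 0 on both arrays, while 18 chains lie on opposite sides of 0.

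*Col1a1* and *Col1a2* encode the chains of type I collagen, the main fibril of tendon and of the sheaths around muscle. The signal of *Col1a1* was 13152 against 14297 on array 1 and 14569 against 14025 on array 2 in the arbitrary fluorescence units of the scanner, with *Gde5* skKO before WT here and in each pair that follows. *Gde5* skKO was the lower channel on array 1 and the higher on array 2, and the log2 ratios were -0.12 and 0.055. The mean was -0.033 ± 0.12 (SD, n = 2), with a 95% interval from the software's error of -0.32 to 0.25. On the linear scale this interval spans 0.80 to 1.19 times the WT level.

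The probe of *Col1a1* was printed 10 times on each array, which gives the precision of a spot. On array 1 the 10 ratios ran from -0.18 to -0.073 with an SD of 0.032, and on array 2 from -0.015 to 0.12 with an SD of 0.045. The software's error for a single spot was 0.20 on array 1 and 0.20 on array 2, which is above the spread of the spots. The 2 arrays differed by more than the spots within them. The probe of *Col2a1*, the cartilage fibril chain, was also printed 10 times and was dim, with *Gde5* skKO signals from 56.5 to 90.6 on array 1. Its 10 ratios had an SD of 0.29 on array 1 and 0.45 on array 2. The mean ratios were 0.35 and -0.44.

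Other probes of *Col1a1* differed in sign. A further probe (mm8 chr11:94766828-94766887, plus strand) had ratios of 0.21 and -0.33, and another (mm8 chr11:94754053-94754112), not above background in every channel, had 0.41 and 0.032. The probe with 10 spots lies at mm8 chr11:94767851-94767910. None of the 3 passed on either array.

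*Col1a2* gave 20958 against 19936 on array 1 and 20458 against 20132 on array 2, with ratios of 0.072 and 0.023. *Col3a1* encodes type III collagen, which forms thinner, reticular fibrils together with type I. Its signals were 11812 against 11532 on array 1 and 12054 against 11926 on array 2, and its ratios of 0.035 and 0.015 were the closest to 0 on both arrays among the fibrillar chains. For both genes the genotypes differed by less than the software's error.

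Type V collagen sets the width of type I fibrils. Its *Col5a1* and *Col5a2* chains had ratios of -0.15 and 0.095 and -0.29 and 0.19, each lower in *Gde5* skKO on array 1 and higher on array 2. The signal of *Col5a2* was 469 against 575 on array 1 and 605 against 531 on array 2. *Col5a3*, a less common chain of this type, was higher on both arrays, with 3589 against 3092 on array 1 and 2476 against 2118 on array 2 and nearly equal ratios of 0.21 and 0.23. Its interval of -0.064 to 0.50 held 0, and it was not called.

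*Col24a1*, a fibrillar chain described mainly in developing bone and cornea, had the highest mean of the 31 chains. Its signals were 299 against 159 on array 1 and 358 against 309.7 on array 2. The ratio was 0.91 on array 1, past the threshold there, and 0.21 on array 2, not past it. The arrays thus differed widely in the size of its ratio. The mean was 0.56 ± 0.49 (SD, n = 2), and with normexp background correction and loess normalization in limma it was 0.18. Its other probe was not well above background and had ratios of -1.85 and 0.78, and the mean over both probes was 0.011. *Col11a2*, a chain of type XI collagen known from cartilage, also passed only on array 1, with ratios of 0.48 and 0.040 for the brighter probe and -0.31 and 0.52 for the other probe. *Col11a1* had 0.11 and -0.16. Over the 10 fibrillar chains, 5 were higher on both arrays, 0 lower on both, and 5 opposite. The median of their mean log2 ratios was 7.1e-06.

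Type IV collagen is the network of basement membranes, and its common form holds *Col4a1* and *Col4a2* chains. The signal of *Col4a1* was 2982 against 2558 on array 1 and 3940 against 2944 on array 2. *Gde5* skKO was the higher channel on both arrays. The log2 ratios were 0.22 and 0.42, with a mean of 0.32 ± 0.14 (SD, n = 2) and a 95% interval of 0.035 to 0.61, a 1.25-fold level. Array 2 passed its threshold and array 1 did not. The probe lies at mm8 chr8:11198981-11199040 on the minus strand. A further probe, whose span in mm8 (chr8:11199818-11201652, minus strand) is longer than the oligo itself, had ratios of 0.28 and 0.34.

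*Col4a2* gave 821 against 682 on array 1 and 896 against 637 on array 2, again with *Gde5* skKO the higher channel on both arrays. Its ratios were 0.27 and 0.49, with a mean of 0.38 ± 0.16 (SD, n = 2), an interval of 0.091 to 0.67 and a 1.30-fold level. The probe lies at mm8 chr8:11448812-11448871 on the plus strand, and a further probe (mm8 chr8:11448152-11448211) had ratios of 0.27 and 0.72. All 4 probes of the pair were thus higher in *Gde5* skKO on both arrays. Each gene shared its direction over both probes and both arrays, but neither was called: array 1 passed its threshold for none of the 4 probes, and array 2 for 3. The limma test used the normexp and loess ratios, with means of 0.30 for *Col4a1* and 0.29 for *Col4a2*. By that test the unadjusted p was under 0.05 for both genes, which are the 2 chains counted above. The adjusted p was 0.374 for *Col4a1* and 0.405 for *Col4a2*.

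The other type IV chains, which are known from special basement membranes such as those of kidney and lens, had less even ratios. *Col4a4* had ratios of 0.24 and -0.16 with the brighter probe and 0.039 and -0.15 with the other, and the means differ in sign. *Col4a6* had -0.14 and 0.15. *Col4a3* was not above background in every channel, with 34.9 against 47.0 on array 1 and 51.8 against 30.7 on array 2, and its ratios of -0.43 and 0.76 pointed opposite ways. Of the 5 chains, 2 were thus higher on both arrays and 3 opposite, and the median was 0.16. That median is the value of the dim *Col4a3*, and it was 0.016 with normexp and loess, 0.0087 without background correction and 0.42 on array 2 alone.

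**Figure D2:**
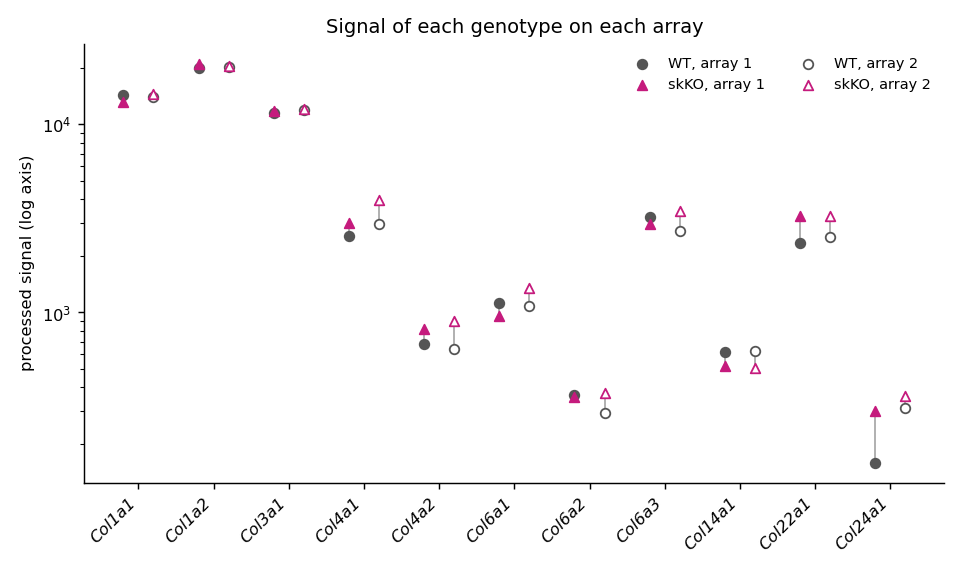
Processed signal (y axis, log scale, arbitrary units) of 11 collagen chains (x axis) in WT (circles) and *Gde5* skKO (triangles), filled for array 1 and open for array 2, and lines join the channels of an array. Signals of different genes come from different probes and are not comparable. The triangle lies above the circle on both arrays for *Col1a2*, *Col3a1*, *Col4a1*, *Col4a2*, *Col22a1* and *Col24a1*, by little for *Col1a2* and *Col3a1*.

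Among the other types, *Col22a1* stood highest. Type XXII collagen is a fibril-associated collagen known from the junction of muscle and tendon. Its signals were 3276 against 2327 on array 1 and 3275 against 2528 on array 2, with *Gde5* skKO the higher channel on both arrays. The ratios were 0.49 and 0.37, with a mean of 0.43 ± 0.085 (SD, n = 2), an interval of 0.15 to 0.72 and a 1.35-fold level. Array 1 passed its threshold and array 2 did not. The probe lies at mm8 chr15:71627443-71627502 on the minus strand. A further probe at mm8 chr15:71697868-71697927 had ratios of 0.39 and 0.44 and passed on array 2 only. Both probes thus gave similar means, and neither was called. With normexp and loess in limma its mean was 0.33 with a standard error of 0.18, the largest of the 31 chains. Under that processing its ratios on the arrays thus lay further apart than those of any other chain. The adjusted p of that test was 0.761.

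*Col14a1*, another fibril-associated collagen of tendon and muscle sheaths, was the lowest. Its signals were 518 against 615 on array 1 and 506 against 625 on array 2, and WT was the higher channel on both arrays. The ratios were -0.25 and -0.30 and the mean was -0.28 ± 0.041 (SD, n = 2), with an interval of -0.56 to 0.013 that held 0. *Col13a1*, a transmembrane collagen of the neuromuscular junction, was dim at 66.8 against 88.6 on array 1 and 94.0 against 100.5 on array 2 and had ratios of -0.41 and -0.096. *Col7a1*, the anchoring fibril chain, had -0.17 and -0.078. These 3 were the chains lower on both arrays, and none passed on either array.

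Type VI collagen forms beaded filaments around muscle fibres, and loss of its chains causes muscular dystrophy in people. *Col6a1* gave 962 against 1118 on array 1 and 1354 against 1078 on array 2, with ratios of -0.22 and 0.33. *Col6a2* had ratios of -0.030 and 0.36 and *Col6a3* of -0.12 and 0.36. All 3 chains were lower in *Gde5* skKO on array 1 and higher on array 2, so that with the brightest probe each was higher in the Cy3 channel of both arrays. The further probe of *Col6a2* went the other way, with 0.36 and -0.32. None of these ratios passed its threshold.

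*Col8a2* and *Col9a2* gave the arrays the most unequal ratios among chains measured in both channels. *Col8a2*, a network-forming chain of cornea and vessels, had signals of 118 against 101 on array 1 and 88.2 against 146 on array 2 and ratios of 0.23 and -0.72, with only array 2 past its threshold. *Col9a2*, a cartilage chain, had 117 against 176 on array 1 and 136 against 105 on array 2 and ratios of -0.59 and 0.37, with only array 1 past its threshold. Both were dim and turned direction between arrays. *Col15a1* and *Col18a1* encode collagens of the vessel and muscle basement membrane zone. Their ratios were 0.36 and 0.041 for *Col15a1*, whose interval of -0.13 to 0.54 held 0, and -0.0039 and 0.21 for *Col18a1*. The further *Col18a1* probe had 0.084 and 0.055.

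The fibril-associated *Col12a1*, *Col16a1* and *Col19a1* had ratios of -0.25 and 0.15, -0.20 and 0.0075 and -0.066 and 0.29. *Col8a1* had -0.013 and 0.063. The transmembrane *Col17a1*, a skin hemidesmosome chain, was not above background in every channel and had 0.30 and 0.042. All of these lay within their thresholds. Of the 16 other chains, 3 were higher on both arrays, 3 lower and 10 opposite, and the median was 0.040. That median turned sign between the arrays, with -0.095 on array 1 alone and 0.11 on array 2 alone.

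Spots with little signal gave less even ratios. In the 13 chains with all 4 signals under 250, the ratios of the arrays differed by a median of 0.40 and up to 1.19, and 9 had opposite directions. In the 10 chains with all 4 signals over 1000, they differed by a median of 0.11 and up to 0.48, and 4 had opposite directions. *Col4a1* and *Col22a1* were among the brighter chains and *Col24a1* was in neither set.

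**Figure D3:**
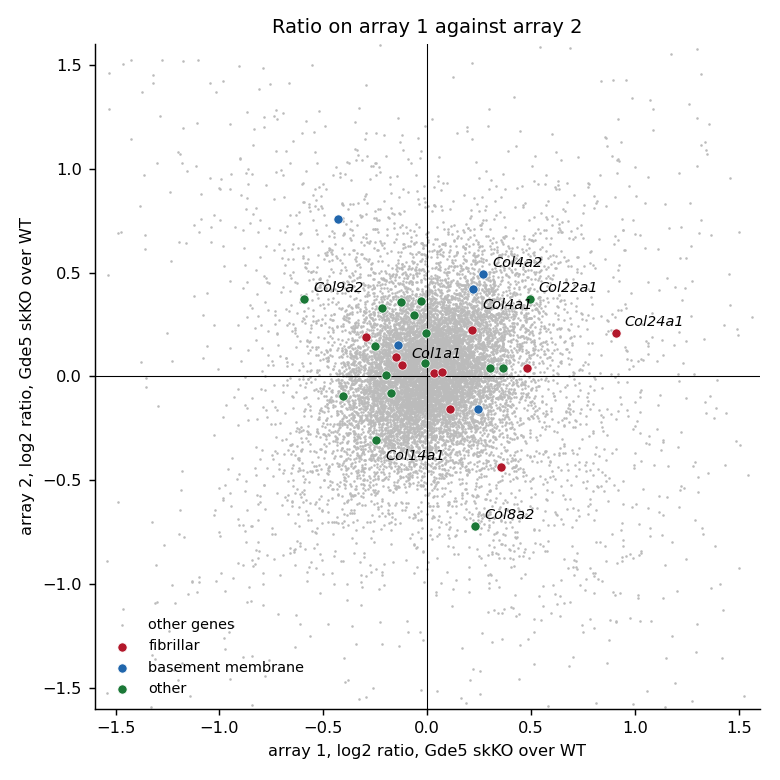
Log2 ratio of *Gde5* skKO over WT on array 1 (x axis) against array 2 (y axis) for each gene above background, with collagen chains coloured by type group. Points in the upper right are higher in *Gde5* skKO on both arrays. The axes stop at 1.6, which leaves out 194 genes, none of them a collagen chain.

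Genes that make, cut, bind or regulate collagen were listed by role. Each list is given by how many of its genes were above background and how many were called, beside 1.57% higher and 1.73% lower over all genes. Of the enzymes and chaperones that modify and fold the chains, 20 were on the arrays and 0 of the 16 above background were called, with a median log2 ratio of 0.060, and of -0.0067 with normexp and loess in limma. *Serpinh1*, the collagen chaperone of the endoplasmic reticulum, had ratios of 0.080 and 0.12. *Glt25d1*, which adds galactose to collagen lysines, had 0.30 and 0.50, and *Plod1*, a lysyl hydroxylase, had 0.56 and 0.11. Of the proteases that cut procollagen ends and the enzymes that cross-link fibrils, 14 were on the arrays and 0 of the 10 above background were called, with a median of -0.042. *Pcolce2*, an enhancer of that cleavage, had -0.50 and -0.28, and *Loxl1*, a cross-linking oxidase, had 0.32 and 0.12.

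Of the proteases that break collagen down and their inhibitors, 16 were on the arrays and 1 of the 13 above background was called higher and 0 lower, with a median of 0.016 and of -0.022 with normexp and loess. *Timp1*, a secreted inhibitor of matrix metalloproteinases, gave 469 against 327 on array 1 and 517 against 321 on array 2, with *Gde5* skKO the higher channel on both arrays. Its ratios were 0.52 and 0.69, with a mean of 0.60 ± 0.12 (SD, n = 2), and 1 of its 2 probes was called. *Timp3* had -0.33 and -0.23 and was not called. Of the collagen receptors, 10 were on the arrays and 1 of the 7 above background was called higher and 0 lower, with a median of -0.051. *Itga1*, the alpha 1 integrin subunit that binds type IV and type I collagen, gave 189.6 against 121 on array 1 and 215 against 141 on array 2. Its ratios were 0.64 and 0.61, and 1 of its 3 probes was called. *Ddr1*, a receptor kinase for collagen, had -0.25 and -0.49 and *Itga11*, an integrin subunit for fibrillar collagen, had -0.18 and -0.42.

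Of the regulators of collagen genes, 11 were on the arrays and 0 of the 10 above background were called higher and 1 lower, with a median of -0.19 and of -0.11 with normexp and loess. *Ctgf*, a matrix protein induced by transforming growth factor beta, gave 1431 against 1936 on array 1 and 1228 against 1964 on array 2, with WT the higher channel on both arrays, and its ratios were -0.44 and -0.68. *Scx*, a transcription factor of tendon cells that acts on *Col1a1*, had 0.36 and 0.59 and was not called. Of the other basement membrane proteins, 16 were on the arrays and 0 of the 12 above background were called, with a median of 0.074. *Lamb2*, a laminin chain of muscle and synapse, had 0.40 and 0.31, and *Lama2*, the main laminin alpha chain of muscle fibres, had 0.10 and 0.27. None of these 12 genes passed its threshold on either array.

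Because whole muscle was used, fewer cells of a type and less RNA per cell cannot be told apart. Markers of the cells that make collagen were therefore read beside the chains. Of 9 fibroblast markers, all above background, 0 were called higher and 1 lower. The median of these markers was -0.15, with -0.013 on array 1 and -0.34 on array 2. Their summed signal was 45302 in *Gde5* skKO against 57275 in WT on array 1 and 42526 against 48115 on array 2. The brightest, *Dcn* (decorin, which binds collagen fibrils), had ratios of -0.40 and -0.13, and *Pi16*, which was called lower, had -0.94 and -0.97. *Dpt*, dermatopontin, had -0.27 and -0.94. Of the 9, 4 were lower on both arrays, 0 higher on both and 5 opposite. *Postn* had -0.013 and 0.21, *Mfap5* -0.0065 and 0.058, *Lum* 0.013 and -0.39, *Thy1* 0.11 and -0.34 and *Fn1* 0.12 and -0.40. The sum was lower in *Gde5* skKO on both arrays, also without *Dcn* at 9392 against 9907 on array 1 and 9059 against 11451 on array 2. A sum adds signals of different probes and follows its brightest gene. The part of fibroblast content in the ratios of the chains was not tested.

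Of 7 endothelial markers, 0 were called, with a median of 0.22 and of 0.069 with normexp and loess. Their summed signal was 12306 against 11218 on array 1 and 13003 against 11832 on array 2. It was higher in *Gde5* skKO on both with *Kdr* and lower on both without it, at 7527 against 7676 on array 1 and 7862 against 7932 on array 2. Of the 7 markers, 4 were higher and 3 lower on both arrays. *Kdr*, the brightest and a receptor for vascular endothelial growth factor, had ratios of 0.43 and 0.40, *Cldn5* had 0.35 and 0.79 and *Tie1* had 0.47 and 0.43, and *Pecam1* had 0.18 and 0.26. *Vwf* had -0.22 and -0.36, *Tek* had -0.20 and -0.25 and *Cdh5*, the cadherin of endothelial junctions, had -0.072 and -0.12. These values stand beside *Col4a1* and *Col4a2*, and the part of endothelial content in their ratios was not tested. Of 4 smooth muscle markers 0 were called, with a median of -0.0056. Their sum was 32896 against 26697 on array 1 and 33353 against 27685 on array 2. Without *Acta2*, the brightest of these, it was 6630 against 7825 on array 1 and 8296 against 7431 on array 2. *Acta2* had 0.48 and 0.31 and *Myh11* had -0.18 and -0.029.

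Of 10 tendon markers, 1 was called lower and 0 higher, with a median of -0.22, of -0.090 with normexp and loess, and a sum of 10486 against 10389 on array 1 and 10123 against 9418 on array 2. *Kera*, keratocan, was the called gene, with ratios of -0.52 and -0.47, and *Thbs4*, the brightest, had 0.25 and 0.33. Of the 10, 5 were lower on both arrays, 3 higher on both and 2 opposite, and 7 passed their threshold on at least 1 array. *Fmod*, fibromodulin, had -0.40 and -0.42 and *Comp* had -0.37 and -0.43, while *Scx* was above 0 on both arrays, as given above. Without *Thbs4* the sum was lower in *Gde5* skKO on both arrays, at 4879 against 5661 on array 1 and 5012 against 5341 on array 2. These stand beside *Col22a1* and *Col14a1*, and the part of tendon content was not tested. Of 9 adipocyte markers, 5 were called lower and 1 higher, with a median of -0.69 and of -0.33 with normexp and loess. The lower ones were *Adipoq* at -0.97 and -1.03, *Cfd* at -0.89 and -0.91, *Retn* at -0.82 and -0.84, *Plin* at -0.80 and -0.57 and *Cidec* at -0.96 and -0.45. *Car3*, a carbonic anhydrase that muscle fibres also express, was the higher one at 1.00 and 0.87. The sum was 107128 against 83322 on array 1 and 101465 against 86135 on array 2, and most of it came from *Car3* and *Fabp4*, the latter at 0.13 and -0.016.

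Muscle fibre markers were strong in all 4 channels, with *Myh2* and other sarcomere genes among them, as the labelled tissue would have them. Of 12, 0 were called, with a median of 0.11 and sums of 762678 against 686595 and 710849 against 679377. *Tnnt1*, slow troponin T, had ratios of 0.38 and 0.68 and *Mb*, myoglobin, had 0.36 and 0.36. Of the 12, 6 were higher and 3 lower on both arrays. The lower ones were *Pvalb*, the calcium-binding parvalbumin of fast fibres, at -0.20 and -0.48, *Myh4*, a fast myosin, at -0.16 and -0.24 and *Tnnt3*, fast troponin T, at -0.013 and -0.029. Of 7 Schwann cell markers 1 was called lower, with a median of -0.13 and of -0.046 with normexp and loess. This was *Egr2*, a myelin regulator, at -0.43 and -0.43, and *S100b* had -0.35 and -0.31. Their brightest, *Pmp22*, had -0.20 and -0.11.

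Of 6 leukocyte markers 0 were called, with a median of -0.15 and of -0.064 with normexp and loess. *Emr1* and *Lyz* had -0.17 and -0.33 and -0.13 and -0.31, while *Cd68* and *Itgam* were not well above background. Of 2 skin markers 0 were called, with *Krt1* at -0.60 and -0.013 and *Krt10* at 0.059 and -0.092, while *Krt5* and *Krt14* were not well above background. Of 3 cartilage and bone markers 1 was called lower, *Bglap1* (osteocalcin) at -3.42 and -2.13, with signals of 11.7 against 125 on array 1 and 37.4 against 164 on array 2. It was not well above background in *Gde5* skKO on either array, so only a bound can be given. In the mean of the log2 signals of both arrays it was at least 4.87-fold lower, with the level in *Gde5* skKO set on each array to its own signal or, where higher, to the lowest signal well above background. Array 2 alone gives less than this mean. *Sox9*, the regulator of cartilage, had 0.021 and 0.046, and the cartilage matrix genes *Acan* and *Matn1* were not well above background.

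**Figure D4:**
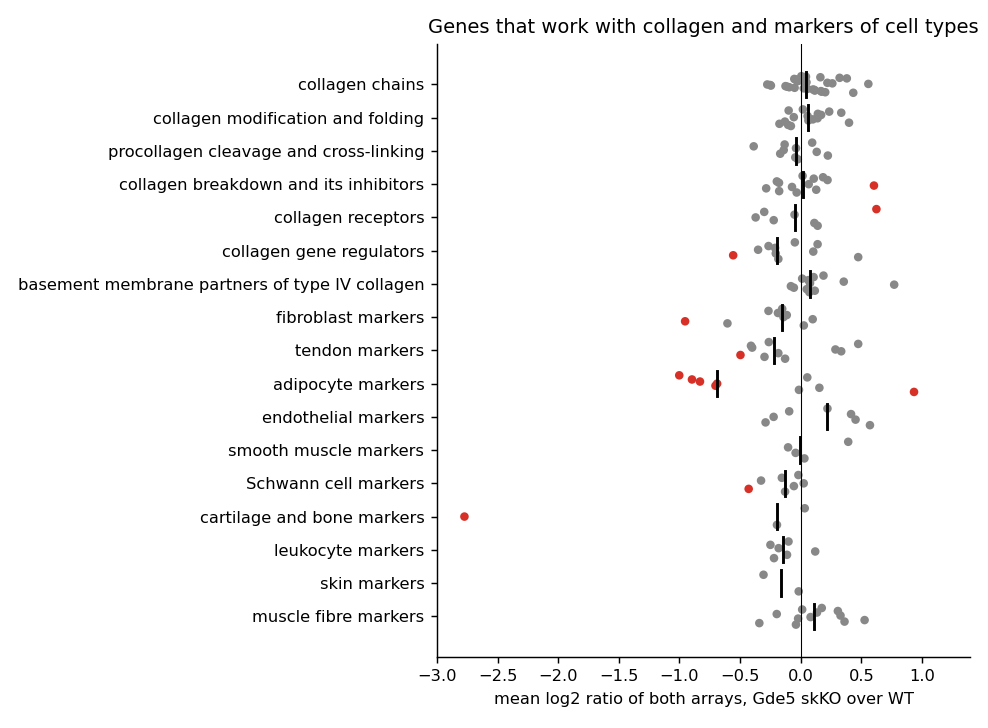
Mean log2 ratio of both arrays, *Gde5* skKO over WT (x axis), of each gene above background in the collagen chains and in the 16 lists of genes (y axis). Points are genes, red where called on both arrays, and black lines are medians. The adipocyte median of -0.69 lies farthest from 0, and that of the collagen chains is 0.044.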

How the data were processed

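RNA of GAS muscle was hybridized to 2 dye-swapped Agilent arrays with probe positions on mm8, on 1 slide and from 1 scan. The authors used Feature Extraction (9.5.3.1) on the images. Per the file headers, a deposited log10 value is Cy5 relative to Cy3, with background subtracted and dyes normalized by the software. The deposited p-value of each spot comes from the software's error model within that array. The deposited processed intensity of each channel gave the signals, and the authors' marks for outlier spots and for spots well above background were used as other columns. The authors' series value table repeats the log10 ratios, rounded and not turned, with a median of 0 on each array.

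Each ratio was put on the log2 scale with *Gde5* skKO as numerator, and spots of a probe were averaged. Of 43379 spots that are not controls, array 1 lost 164 and array 2 lost 200 to outlier marks. A further 8 spots of array 1, with a local background over 2 times the array's median, were removed after their values had been looked at. Of the rest, 53.2% (array 1, skKO), 45.6% (array 1, WT), 44.6% (array 2, skKO) and 47.4% (array 2, WT) were well above background. A gene was represented by its brightest probe. All p-values here measure the spread within or between 2 hybridizations, which may be technical, so precision is limited by having only 2 arrays. Intervals of the mean use the errors of both arrays.

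The chains named in the text were those called, the 3 highest and 3 lowest in each type group and those with probes of unequal sign; all others are given with their ratios, and of each list the called genes and the 2 largest ratios. The members and the 16 lists were chosen with earlier results of these data known. Alternatives were limma 3.58.1 under R 4.3.3 (normexp with an offset of 50, loess, moderated test with Benjamini-Hochberg adjustment), no background correction, the series table, other filters and thresholds, all probes, and each array alone. The call and the limma test were tested on simulated data with planted log2 changes of 1.5. No collagen chain had a mean of that size, and recovery of smaller changes was not tested. Python 3.11.15 was used for the rest.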

Additional observations from a re-analysis of the deposited data

How the results depend on the processing

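No collagen chain was called under normexp and loess, without background correction, with the series table, with no filter or the stricter filter on dim probes, with any probe of a gene, at a p under 0.01 or by limma after adjustment. The count of chains called higher was 4 with the errors of both arrays combined, which was chosen after seeing the data, and 2 by limma at an unadjusted p under 0.05. With each array alone it was 2 to 3 higher and 1 lower, since a single array then decides. The median of the fibrillar chains was 0.13 with all probes and 0.047 to 0.091 with each array alone. The median of the basement membrane chains was 0.016 with normexp and loess and 0.0087 without background correction, and 0.22 to 0.42 with each array alone, and its median chain in the main setting is *Col4a3*, a dim one. *Gde5* had a mean of -2.33 over all probes, against -0.26 with the brightest probe. limma called 109 genes after adjustment, and 406 with no filter on dim probes; the cause was not tested.

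Of the 31 chains, 27 kept the direction of the mean with normexp and loess, 30 without background correction, 24 with all probes, 24 without array 1 and 20 without array 2. Under the alternatives tried, *Col22a1* ranged from 0.33 to 0.49, *Col4a1* from 0.22 to 0.42 and *Col4a2* from 0.27 to 0.49. The lowest value of *Col22a1*, with normexp and loess, had a standard error of 0.18, so the arrays agreed less closely there. Medians of gene lists were compared under normexp and loess, added after seeing the data. They turned sign for the genes of collagen modification, from 0.060 to -0.0067, and of collagen breakdown, from 0.016 to -0.022, and kept it for the other 14 lists. The slide and scan could not be set as a block, because both arrays share them. The software's error of about 0.21 per spot limits what an array can call, and dim spots limit it further.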
